A study of Mus musculus with 16 samples.

Results

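Cytosolic ribosomal proteins are the protein subunits of the ribosomes that translate messenger RNA in the cytoplasm. The genes were chosen by symbol: protein-coding Rpl and Rps genes with a number, the stalk proteins Rplp0, Rplp1 and Rplp2, Rpsa, and Fau, leaving out the S6 kinases and pseudogenes. That rule found 80 of the 37620 genes in the files, 48 of the large and 32 of the small subunit, and used no measured value. Rpl24 was not analysed here. RNA was sequenced from the proximal jejunum, a stretch of small intestine below the duodenum, in CBA/J males 8 weeks old. The groups were 8.5 Gy of gamma rays on a methionine-supplemented diet, 0 Gy on the supplemented diet, 8.5 Gy on a methionine-adequate diet and 0 Gy on the adequate diet, with 4 libraries each and 16 in all. Supplementation was 300% and the period was 6 days, which the design text does not assign to diet or to time after exposure.

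A ribosome is built in the nucleolus, where ribosomal proteins join ribosomal RNA as it is transcribed and processed. Each ribosome holds 1 copy of nearly every protein, and the genes are usually expressed together. Many of their mRNAs begin with a C and a run of pyrimidines, the 5′ terminal oligopyrimidine (TOP) tract, through which mTORC1 signalling controls their translation. Several of the genes carry small nucleolar RNAs (snoRNAs), which guide modification of ribosomal RNA, in their introns. In the small intestine, ribosome production is high in crypt cells.

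Libraries held 2.57 to 15.51 M counts, and 3 of them were below 4 M: irradiated supplemented replicate 1, irradiated adequate replicate 2 and unirradiated adequate replicate 1. All 12 markers of absorptive enterocytes listed for the tissue passed the filter on low counts. Their summed level ranged from 17479 to 69247 CPM in irradiated supplemented libraries, against 33685 to 43955 CPM in unirradiated ones, and from 19558 to 54815 CPM in irradiated adequate libraries, against 36423 to 45723 CPM in unirradiated ones. CPM are counts scaled to a common library total. The labels name neither animals nor batches, so p-values measure the spread between libraries, which may be partly technical. In whole tissue, a change in the mix of cells and a change in RNA per cell cannot be told apart.

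The start of the genes was searched for the pyrimidine run of TOP mRNAs. In the promoter table of RefSeq (build GRCm38.p6), 60 of the 80 genes had an entry. A C at the annotated start followed by at least 4 more bases that were C or T, searched on the gene's own strand, stood in 14 of these 60 genes (23.3%), against 3.01% of 27025 genes in the table. Within 5 bases of the annotated start on either side, the shares were 48.3% and 21.2%. The windows below hold 15 bases before and 15 bases from the start, with a run that begins with C at the start in capitals. Rps15a, Rpl35, Rpl14 and Rplp2 are shown because they have the run and were higher after irradiation in at least 1 comparison, and Rpl5 and Rps23 because they were higher without it.
Rps15a (chr7:118116133-118116162, minus strand): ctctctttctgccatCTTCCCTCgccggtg
Rpl35 (chr2:39005117-39005146, minus strand): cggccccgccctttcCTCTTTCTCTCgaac
Rpl14 (chr9:120571502-120571531, plus strand): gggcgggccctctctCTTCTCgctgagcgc
Rplp2 (chr7:141447636-141447665, plus strand): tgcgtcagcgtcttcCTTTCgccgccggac
Rpl5 (chr5:107900513-107900542, plus strand): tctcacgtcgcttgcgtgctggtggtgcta
Rps23 (chr13:90923107-90923136, plus strand): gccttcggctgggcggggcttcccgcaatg
A run at the annotated start is a description of these letters, and a gene without it may begin elsewhere.

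Of the 80 genes, 75 passed the filter on low counts, and 5 did not. Rps27 had 298 counts in irradiated supplemented replicate 2, 299 in irradiated adequate replicate 1, 182 in unirradiated adequate replicate 3 and 0 in the other 13 libraries. Rps27rt, a gene named as a retrogene copy of Rps27, averaged 83.7 ± 36.0 and 57.5 ± 5.09 CPM in the irradiated and unirradiated supplemented libraries (SD, n = 4 each). Rpl26 had 0 to 15 counts per library, and Rpl3l, a muscle paralog of Rpl3, had 0 to 2. Rpl39l had 1 count in 1 library, and Rpl10l, a testis paralog of Rpl10, had 0 in all 16. The mean TPM, which is corrected for transcript length, gave the order of levels. Rpl13 was highest at 275 TPM (177 to 370.4 across libraries), followed by Rplp0 at 164 TPM (108 to 235) and Rps29 at 156 TPM (91.2 to 234), so these ranges overlap. Rpl31 (0.993 TPM), Rps13 (1.08 TPM) and Rpl21 (1.67 TPM) were lowest among the 75. This order is that of reads as assigned to each gene. Named pseudogenes held 97.2% of the counts summed over Rpl31 and its copies, 95.5% for Rps13 and 11.9% for Rpl21. The counted length of Rpl13 was close to that of a transcript with a retained intron, as given below.

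After irradiation on the adequate diet, 32 of the 75 ribosomal protein genes were higher and 1 was lower at an adjusted p under 0.05, in edgeR's quasi-likelihood test over 16558 genes. Over all genes tested, 7.13% were higher and 6.58% lower, 13.7% in either direction. The median log2 fold change was 0.57 over the 75 genes and 0.01 over all genes tested, and 69 of the 75 values were positive. Both subunits took part, with 19 of 44 large and 13 of 31 small subunit genes higher, and medians of 0.56 and 0.57. After irradiation on the supplemented diet, 36 of the 75 were higher and 1 was lower, while 8.03% of all genes were higher, 7.21% lower and 15.2% either. There the median log2 fold change was 0.61 against 0.01, with 21 of 44 large and 15 of 31 small subunit genes higher.

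The counts depended on single libraries more than the median did. On the adequate diet the number higher was 11 without irradiated replicate 1, and 17, 18 and 19 without unirradiated replicates 1, 3 and 4. For the supplemented diet it was 20 and 22 without irradiated replicates 1 and 2, 23 and 18 without unirradiated replicates 1 and 4, and 52 without irradiated replicate 4. Calls over all 16558 genes moved as well. On the adequate diet 1180 were higher in the main fit and 689 without irradiated replicate 1. Without unirradiated replicates 1, 3 and 4 these were 903, 872 and 944. On the supplemented diet 1329 were higher in the main fit. There it was 1033 and 822 without irradiated replicates 1 and 2, 816 and 830 without unirradiated replicates 1 and 4, and 1834 without irradiated replicate 4. Medians stayed between 0.51 and 0.65 on the adequate diet, and between 0.49 and 0.75 on the supplemented diet, when each library was left out in turn. Library totals without TMM factors gave 13 ribosomal protein genes higher on the adequate and 14 on the supplemented diet, against 614 and 671 over all genes. With those totals the median of all genes tested moved to -0.16 and -0.20, against 0.41 and 0.42 for the ribosomal protein genes.

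**Figure D1:**
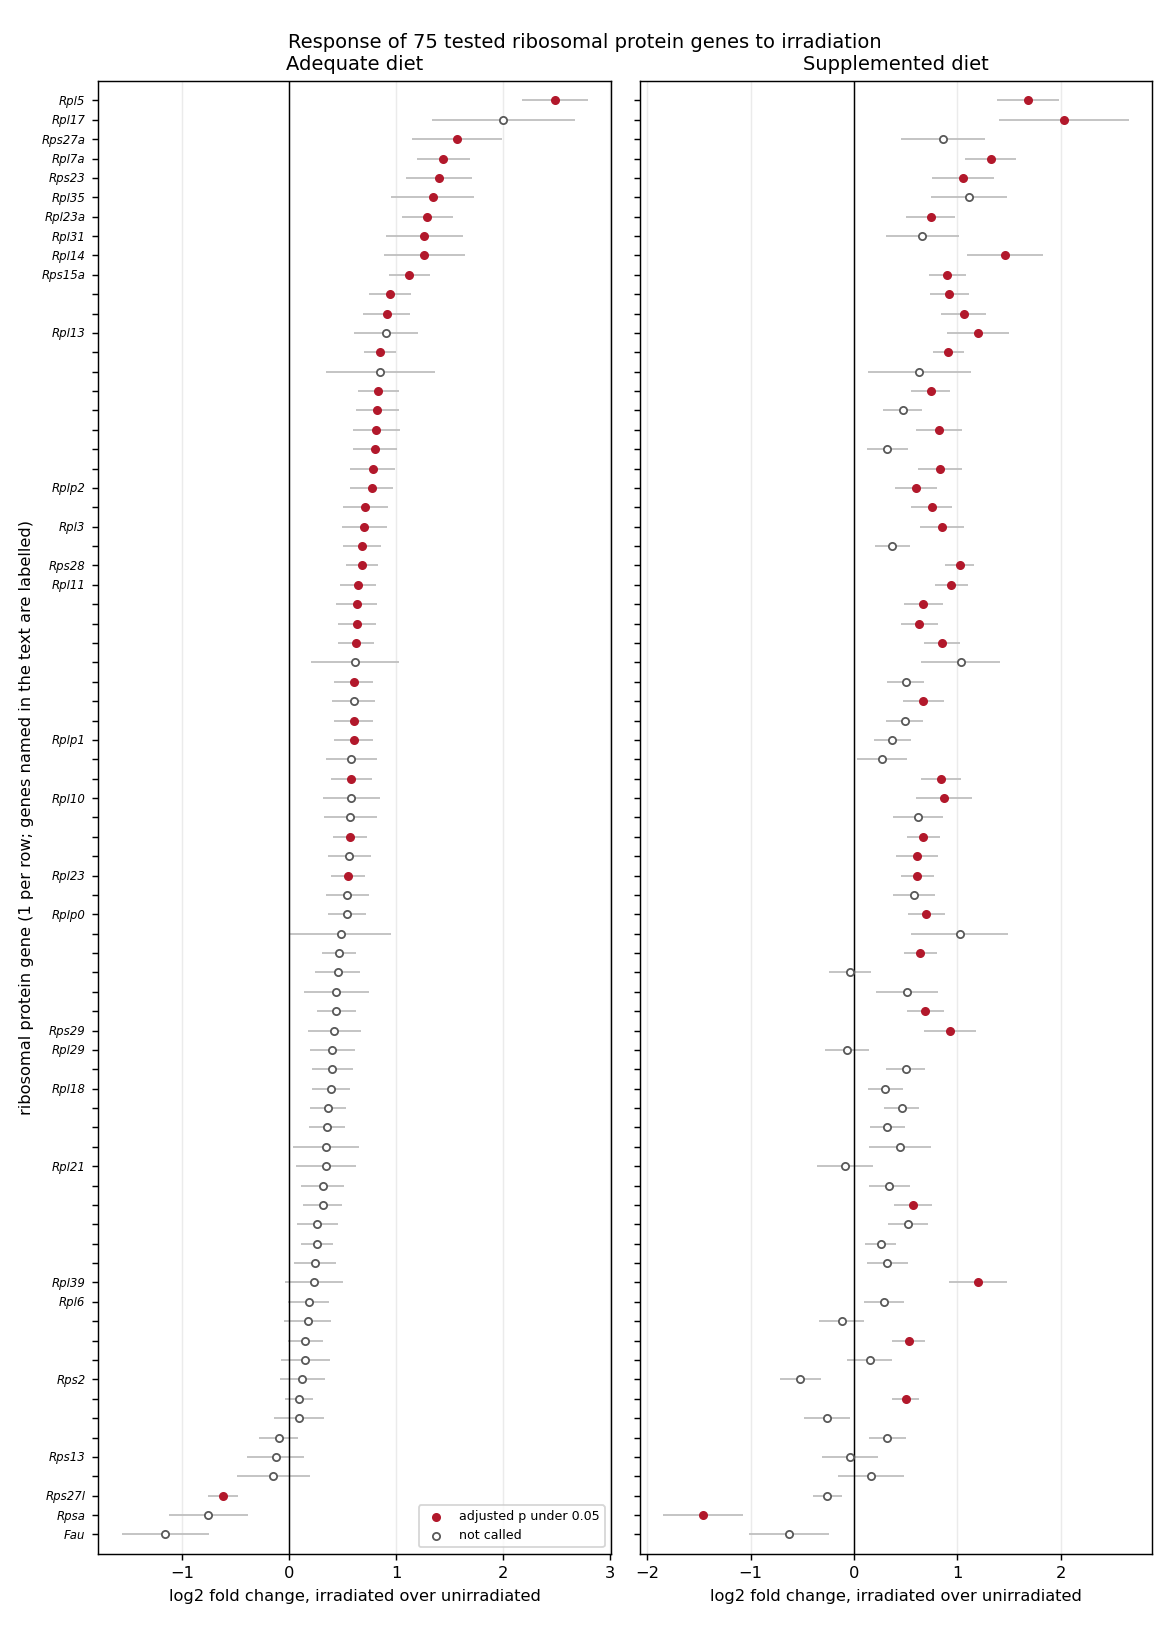
Log2 fold change (irradiated over unirradiated, horizontal axis) with its standard error for each of the 75 tested genes, on the adequate diet (left) and the supplemented diet (right), in order of the adequate value; genes named in the text are labelled. Filled points passed an adjusted p of 0.05: 33 genes on the adequate and 37 on the supplemented diet, of which all but Rps27l on the left and Rpsa on the right lie to the right of zero.

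The same genes were often found on both diets, which share no library. A group of 23 genes was higher on both, 71.9% of the adequate list and 63.9% of the supplemented list. Another 9 were called higher on the adequate diet only and 13 on the supplemented diet only, without a test of the difference passing for any of them. In 63 of the 75 genes the log2 fold change was positive on both diets. The overlap of calls and of signs over all genes tested was not counted, so these shares have no background. Across the 75 genes the 2 sets of log2 fold changes had a Pearson r of 0.80 and a Spearman rho of 0.74, against an r of 0.69 across all genes tested. These are descriptions across genes, which are not independent replicates. Neither mean transcript length (rho -0.05 on both diets), mean log2 CPM (0.00 adequate, 0.13 supplemented) nor the number of named pseudogene copies (0.11 and -0.05) ran closely with the response.

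Among large subunit genes, Rpl5 had the largest rise on the adequate diet. Its protein joins Rpl11 and 5S ribosomal RNA in a particle that can bind Mdm2. Irradiated adequate libraries had 291, 269, 264 and 504 CPM, against 33.7, 72.9, 75.5 and 53.9 CPM in unirradiated adequate libraries. The log2 fold change was 2.48 ± 0.31 (SE; edgeR adjusted p = 0.000133), and the groups did not overlap. Irradiated supplemented libraries had 437, 426, 519 and 276 CPM, against 79.7, 127, 188 and 125 CPM in unirradiated supplemented libraries, a log2 fold change of 1.68 ± 0.30 (edgeR adjusted p = 0.00163). Here too all irradiated libraries lay above all unirradiated ones. Rpl11, its partner, had log2 fold changes of 0.64 (adjusted p = 0.0165) and 0.94 (adjusted p = 0.00136) on the 2 diets. Leaving out irradiated adequate replicate 1 ended the adequate call of Rpl11 (adjusted p = 0.0588).

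Rpl7a, a large subunit protein that hosts snoRNAs, had 586, 552, 499 and 814 CPM in irradiated adequate libraries, against 218, 247, 214 and 223 CPM in unirradiated ones. It had 1230.3, 691, 701 and 400.0 CPM in irradiated supplemented libraries, against 276, 292, 342 and 300.3 CPM in unirradiated ones. Neither pair of groups overlapped, with log2 fold changes of 1.44 ± 0.25 (edgeR adjusted p = 0.00160) and 1.32 ± 0.25 (adjusted p = 0.00248). Summed with its 7 named pseudogenes, which held 15.6% of the summed counts, the values were 1.10 and 1.06. A counted Rpl7a transcript of 834 bases, annotated as a processed transcript, holds 2 of its snoRNAs. Of these, Gm22879 had 1.03 on the adequate and 1.08 on the supplemented diet, and Gm24134 had 1.62 and 1.47. Their part in the Rpl7a counts was not tested.

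Rpl14 rose by 1.26 ± 0.38 (adjusted p = 0.0387) on the adequate diet, where irradiated libraries had 72.0, 40.2, 54.7 and 99.7 CPM, against 52.6, 19.2, 28.4 and 17.5 CPM in unirradiated libraries. The lowest irradiated value lay below the highest unirradiated value. In the supplemented groups, irradiated libraries had 129, 104, 74.9 and 52.9 CPM, against 46.3, 28.0, 25.4 and 30.9 CPM in unirradiated libraries, with no overlap (1.46 ± 0.37, adjusted p = 0.0161). Named pseudogenes held 57.6% of the counts summed over Rpl14 and its copies, and the summed values were 0.53 (adjusted p = 0.0844) and 0.67 (adjusted p = 0.0312). The adequate call ended with any of 5 libraries left out (adjusted p up to 0.110).

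Rpl39, a small protein that lines the exit tunnel for the nascent chain, rose on the supplemented diet by 1.20 ± 0.28 (adjusted p = 0.00882). Irradiated supplemented libraries had 88.2, 86.2, 69.0 and 45.9 CPM, against 23.5, 40.9, 38.0 and 23.1 CPM in unirradiated ones, without overlap. On the adequate diet its log2 fold change was 0.23 ± 0.27 (adjusted p = 0.629), and the diet by radiation interaction was 0.97 ± 0.39 (unadjusted p = 0.0236, adjusted p = 1.0). Summed with its named pseudogene, which held 53.1% of the total, Rpl39 had 0.57 (adjusted p = 0.0994) on the adequate and 1.21 (adjusted p = 0.00210) on the supplemented diet. Rpl17, which lies at the exit of that tunnel, had 32.3, 37.2, 41.7 and 28.6 CPM in irradiated supplemented libraries, against 3.43, 4.96, 15.1 and 10.9 CPM in unirradiated ones. Its log2 fold change was 2.03 ± 0.63 (adjusted p = 0.0462), and 2.0 ± 0.67 (adjusted p = 0.0644) on the adequate diet. The supplemented call ended with any of 12 libraries left out (adjusted p up to 0.123). Summed with named pseudogenes, which held 82.5% of the total, these were 1.22 (adjusted p = 0.000170) and 0.89 (adjusted p = 0.00214).

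Other large subunit genes with the largest rises were Rpl35 (1.34), Rpl23a (1.29) and Rpl31 (1.26) on the adequate diet, and Rpl13 (1.20) on the supplemented diet. Rpl3, a protein of the peptidyl transferase centre, rose by 0.70 on the adequate diet and 0.85 on the supplemented diet. Named pseudogenes held 84.0% of its summed counts, and the sum gave 0.55 (adjusted p = 0.0733) and 0.81 (adjusted p = 0.0118). Rpl10, which is added late to the large subunit, had 0.58 (adjusted p = 0.176) on the adequate and 0.87 (adjusted p = 0.0433) on the supplemented diet. Its copies held 66.8% of the summed counts, and the sum gave 0.61 (adjusted p = 0.0365) and 0.51 (adjusted p = 0.0693), so the diet with a call turned round. The stalk recruits the elongation factors to the ribosome. Its Rplp2 rose on both diets (0.77 and 0.60), Rplp1 rose on the adequate diet (0.60), with 0.37 (adjusted p = 0.189) on the supplemented one, and Rplp0 rose on the supplemented diet (0.70), with 0.54 (adjusted p = 0.0566) on the adequate one. Several of these calls rest on single libraries. Leaving out irradiated adequate replicate 1 ended that of Rplp2 on the adequate diet (adjusted p = 0.0561), and any of 13 libraries its supplemented call (up to 0.128). The calls of Rpl35, Rpl31, Rpl3 and Rplp1 on the adequate diet ended with any of 4, 5, 6 and 8 libraries left out (adjusted p up to 0.0871, 0.0969, 0.116 and 0.111). For Rpl10 on the supplemented diet it was any of 9 (up to 0.124), and for Rplp0 unirradiated replicate 4 or irradiated replicate 2 (up to 0.0564).

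Among small subunit genes, Rps15a did not overlap between groups on the adequate diet. Irradiated adequate libraries had 106, 79.2, 80.7 and 102 CPM, against 42.8, 46.3, 40.4 and 39.8 CPM in unirradiated ones, a log2 fold change of 1.12 ± 0.19 (adjusted p = 0.00102). On the supplemented diet it had 134, 116, 99.1 and 62 CPM when irradiated, against 47.7, 58.8, 62.5 and 50.6 CPM, where the lowest irradiated library fell among the unirradiated ones (0.90 ± 0.18, adjusted p = 0.00380). Summed with its 8 named pseudogenes, which held 33.0% of the total, Rps15a had 0.73 (adjusted p = 0.0252) and 0.65 (adjusted p = 0.0408). Rps23, which sits near the decoding centre, had 76.4, 49.5, 54.9 and 69.3 CPM in irradiated adequate libraries, against 12.4, 26.3, 33.7 and 20.6 CPM in unirradiated ones. The groups did not overlap (1.40 ± 0.31, adjusted p = 0.00761). In irradiated supplemented libraries it had 109.8, 53.3, 60.6 and 36.6 CPM, against 37.2, 32.2, 28.1 and 26.2 CPM (1.05 ± 0.30, adjusted p = 0.0277). Those groups overlapped, and the call ended with any of 5 libraries left out (adjusted p up to 0.0819). Rps23 has no named snoRNA, and its named pseudogenes held 0.0330% of the summed counts.

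Rps28 had 27.9, 26.3, 29.8 and 27.0 CPM in irradiated adequate libraries, against 15.6, 16.6, 16.9 and 19.7 CPM in unirradiated ones. It had 31.5, 39.1, 46.8 and 28.2 CPM in irradiated supplemented libraries, against 19.6, 20.1, 17.4 and 15.3 CPM. All irradiated libraries lay above their unirradiated controls, with log2 fold changes of 0.68 ± 0.15 (adjusted p = 0.00656) and 1.02 ± 0.14 (adjusted p = 0.000250). Rps27a, made as a fusion with ubiquitin, had 92.8, 62.1, 74.4 and 84.0 CPM in irradiated adequate libraries, against 3.50, 27.9, 25.6 and 44.3 CPM (1.57 ± 0.42, adjusted p = 0.0227). Without unirradiated replicate 1, its value was 1.28, and the call ended without unirradiated replicate 2 or 3 or irradiated replicate 1 (adjusted p up to 0.0643). Its log2 fold change on the supplemented diet was 0.86 ± 0.41 (adjusted p = 0.173). Summed with its pseudogene, which held 9.67% of the total, Rps27a had 0.93 (adjusted p = 0.0164) on the adequate diet and 0.74 (adjusted p = 0.0433) on the supplemented diet, where it was then called. Rps29 rose by 0.93 (adjusted p = 0.0194) on the supplemented diet and had 0.42 (adjusted p = 0.282) on the adequate diet. The supplemented call of Rps29 ended without unirradiated replicate 1 or 4 or irradiated replicate 1 (adjusted p up to 0.0676).

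**Figure D2:**
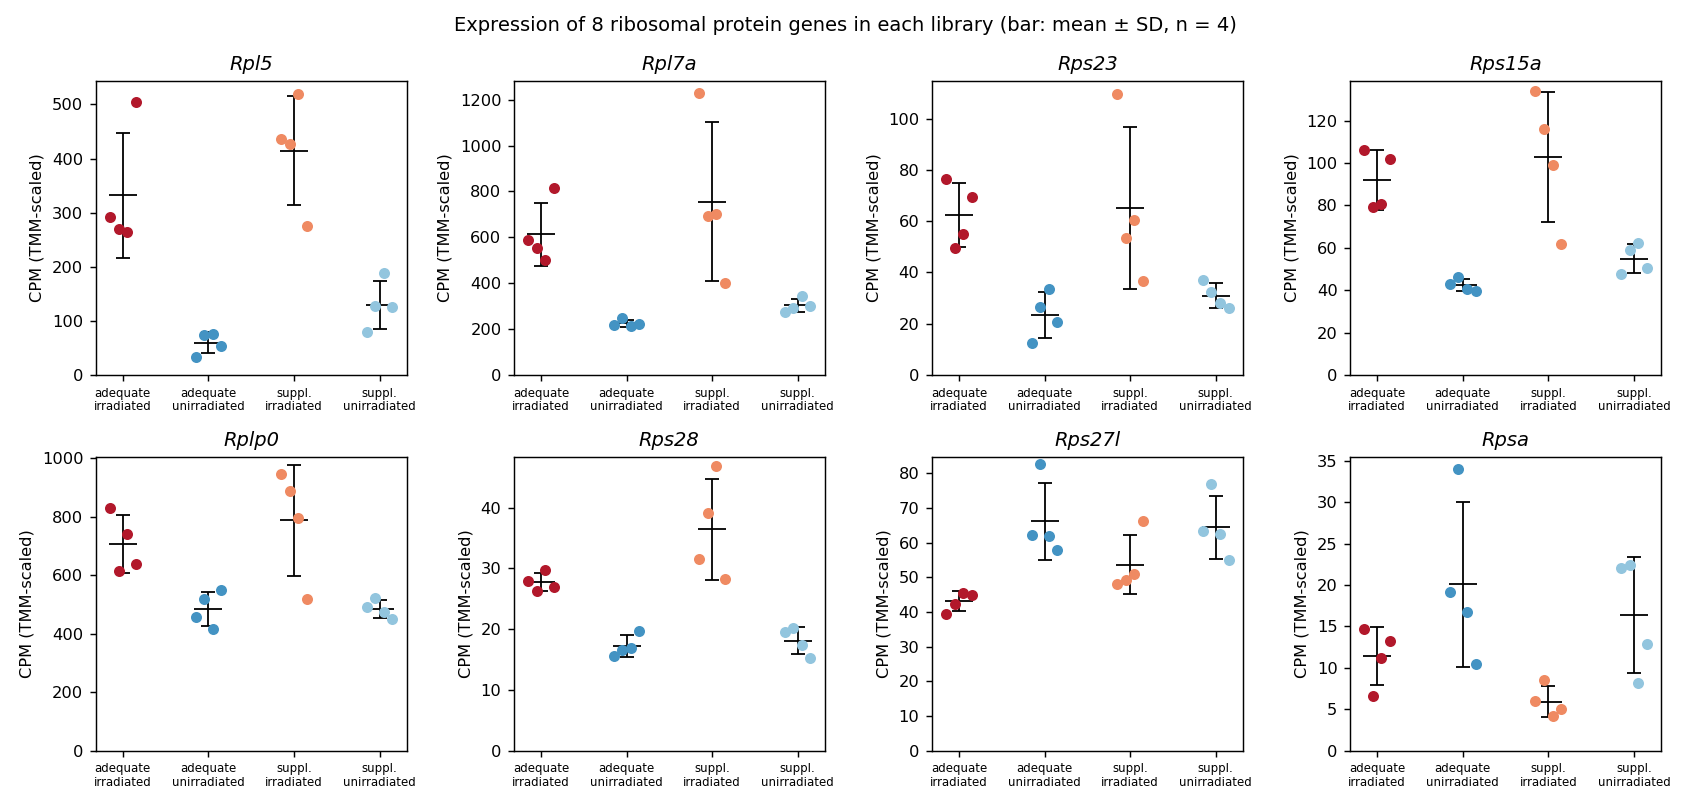
CPM over TMM-scaled totals (vertical axis, from 0) in each library for 8 genes, with irradiated left of unirradiated libraries on each diet and the mean ± SD of 4 libraries. On the adequate diet, irradiated libraries lay above unirradiated ones for Rpl5, Rpl7a, Rps23, Rps15a, Rplp0 and Rps28, and irradiated supplemented replicate 4 was the lowest irradiated supplemented library for each of these 6.

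A single gene was lower on the adequate diet: Rps27l, a paralog of Rps27 that is known as a target of p53. It had 39.3, 42.3, 45.6 and 45 CPM in irradiated adequate libraries, against 62.1, 82.6, 61.9 and 57.9 CPM in unirradiated ones. All irradiated libraries lay below all unirradiated libraries, with a log2 fold change of -0.62 ± 0.14 (adjusted p = 0.00800). On the supplemented diet it had 48.1, 49.2, 50.8 and 66.3 CPM when irradiated, against 63.3, 76.8, 62.5 and 55.0 CPM (-0.26 ± 0.14, adjusted p = 0.219), and these groups overlapped. The diet by radiation interaction was 0.36 ± 0.20 (adjusted p = 1.0). Rps27l has no named pseudogene and no snoRNA.

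Rpsa was the gene called lower on the supplemented diet. Its protein is also known as the laminin receptor precursor, and it is a member of the small subunit. Irradiated supplemented libraries had 6.00, 8.51, 4.12 and 5.02 CPM, against 22.1, 22.4, 8.14 and 12.9 CPM in unirradiated ones (-1.46 ± 0.39, adjusted p = 0.0197). The groups overlapped at 8.51 and 8.14 CPM, and the call ended without unirradiated replicate 1 or 2 or irradiated replicate 3 (adjusted p up to 0.0696). Its reads were shared with copies: 8 named pseudogenes held 96.9% of the summed counts, 3907 per library against 127 for Rpsa itself. Summed with them, Rpsa had a log2 value of 0.23 (adjusted p = 0.528), so the direction turned round. Fau, a ubiquitin-like fusion with a small subunit protein, was at -1.16 (adjusted p = 0.0720) on the adequate diet and averaged 2.84 ± 2.01 and 6.97 ± 3.18 CPM in irradiated and unirradiated libraries (SD, n = 4 each).

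Pseudogene copies took a large part of the counts of some genes, so each gene was also summed with its named pseudogenes, of which the files hold 196. The sum gave 34 genes higher and 1 lower on the adequate diet and 40 higher and 0 lower on the supplemented diet, of 76 tested, with medians of 0.57 and 0.61. Of all 16512 genes tested in that fit, 1173 were higher and 1088 lower on the adequate diet. On the supplemented diet these were 1329 and 1194. Rps13, with 95.5% of its summed counts in copies, had -0.13 alone and 0.76 when summed on the adequate diet (adjusted p = 0.00712). For supplemented libraries these values were -0.04 and 0.94 (adjusted p = 0.00149). Rpl31, with 97.2% in copies, was called alone on the adequate diet (1.26) and not when summed (0.52, adjusted p = 0.0900). Of the 52 genes with under 10% of their summed counts in copies, 25 were higher and 1 lower on the adequate diet, and 27 higher and 0 lower on the supplemented diet. These are calls of the main fit, where 7.13% of all genes were higher and 6.58% lower on the adequate diet. On the supplemented diet the shares were 8.03% and 7.21%.

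**Figure D3:**
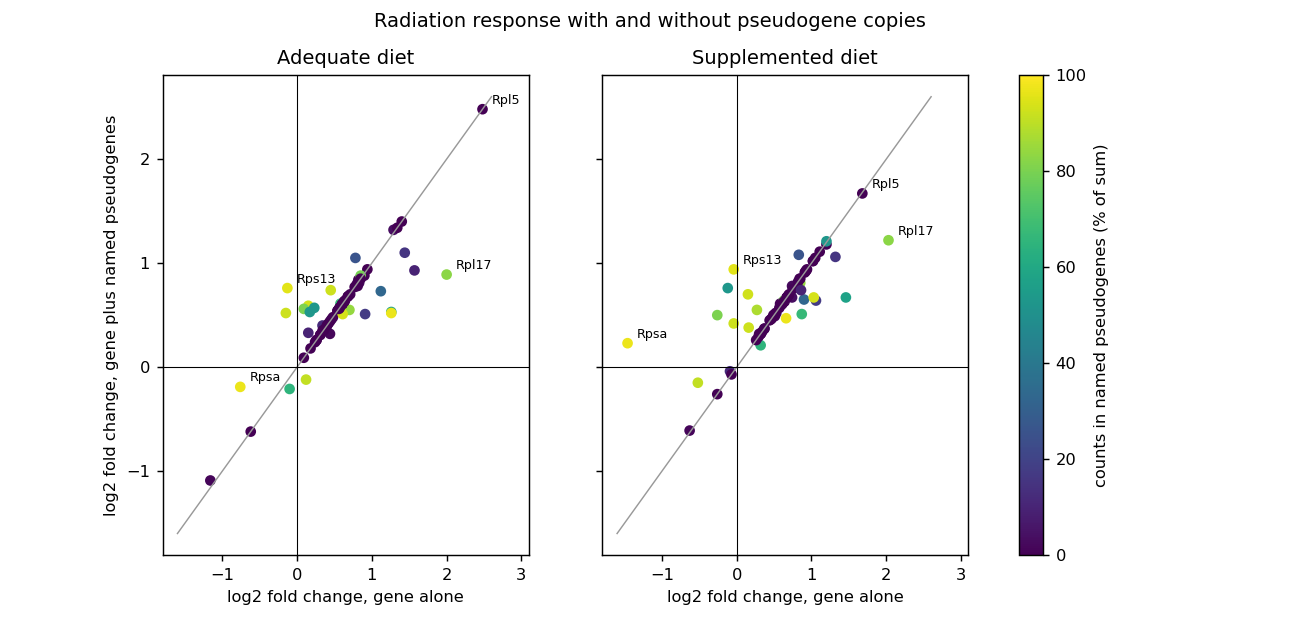
Log2 fold change (irradiated over unirradiated) of each gene alone (horizontal axis) and summed with its named pseudogenes (vertical axis), with the grey line of equal values and colour for the percentage of the summed counts held by the pseudogenes. Rpsa moves across zero on the supplemented diet, Rps13 from about zero to 0.76 and 0.94, and Rpl5 stays at 2.48 on the adequate diet.

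Ribosomal protein genes that carry snoRNAs were looked at apart, because the libraries were made with a small RNA protocol. The 13 tested genes with a snoRNA inside an exon of a counted transcript had medians of 0.63 and 0.67 on the adequate and supplemented diets, with 6 and 8 of them higher. The 16 genes with snoRNAs in introns only had medians of 0.57 and 0.63, with 5 and 9 higher. The 46 genes without a snoRNA had medians of 0.57 and 0.55, with 21 and 19 higher and 1 and 0 lower. Of the 43 genes with no snoRNA in a counted exon and under 10% of summed counts in pseudogenes, 20 were higher on the adequate diet (median 0.56) and 21 on the supplemented diet (median 0.61). These classes were set after the counts had been seen. As background, 7.13% of all 16558 genes were higher and 6.58% lower with adequate methionine, at a median of 0.01. With supplementation, 8.03% of them were higher and 7.21% lower, again at a median of 0.01.

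The 51 tested snoRNA genes inside the ribosomal protein genes include 34 that were higher on the adequate and 27 on the supplemented diet, with 0 and 1 lower, and medians of 1.03 and 0.83. The lower one was Snora62, in Rpsa (-0.77, adjusted p = 0.00936). Over all genes tested, 7.13% were higher and 6.58% lower on the adequate diet, and 8.03% higher and 7.21% lower on the supplemented diet. Calls among snoRNAs outside the ribosomal protein genes were not counted, so the rise is not shown to be particular to those inside them. Across the libraries, all snoRNAs together took 7.18 to 10.7% of the counts in irradiated adequate libraries, against 2.93 to 4.03% in unirradiated ones, and 7.73 to 14.1% in irradiated supplemented libraries, against 3.13 to 5.05%. Their part in the rise of the host genes was not tested.

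For Rpl5 and Rpl13, the mean length of the counted transcripts was set beside the lengths of single transcripts. The snoRNA sequences below are shown because Snord21 lies in Rpl5 and Snord68 in Rpl13, and capitals mark the C box at the 5′ end and the D box toward the 3′ end, motifs that define box C/D snoRNAs. Both are given as DNA letters from the GENCODE M21 transcripts on GRCm38.
Snord21 (chr5:107904555-107904648, plus strand): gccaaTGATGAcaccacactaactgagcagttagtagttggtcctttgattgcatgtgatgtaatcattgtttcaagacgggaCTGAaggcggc
Snord68 (chr8:123103038-123103123, plus strand): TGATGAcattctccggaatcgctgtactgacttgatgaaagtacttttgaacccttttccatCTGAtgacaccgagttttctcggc
Rpl5 counts had a mean transcript length of 999 bases, where its transcript that holds Snord21, annotated as a retained intron, has 1024 bases and its coding transcripts 2045 and 834. Other counted Rpl5 transcripts, also annotated as retained introns, have 854, 634 and 815 bases. A mix of these lengths can give the same mean, so it does not place the counts on a single transcript. Snord21 had 1784, 437, 1664 and 3209 counts in irradiated adequate libraries, against 73, 639, 557 and 510 in unirradiated ones, a log2 fold change of 2.07 (adjusted p = 0.000323), beside 2.48 for Rpl5. In irradiated supplemented libraries it had 907, 3655, 4935 and 1540 counts, against 518, 987, 1217 and 1004 (1.41, adjusted p = 0.00317).

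Rpl13 held 13.1 to 28.6% of all counts in the 80 genes. Its mean counted length was 1947 bases, close to the 1969 bases of the retained-intron transcript that holds Snord68 and far from the 780 bases of the coding transcript. For Rpl5 and Rpl13 the mean lengths are the submitters' and the transcript lengths those of GENCODE M21. These sources can differ: Rps25, with 1 counted transcript, had 683 bases in the first and 1280 in the second. Rpl13 had 4081, 3704, 4825 and 1895 CPM in irradiated supplemented libraries, against 1137, 1609, 2321 and 1246 CPM in unirradiated ones (1.20 ± 0.30, adjusted p = 0.0125). Irradiated adequate libraries had 2539, 2092, 2512 and 3688 CPM, against 1446, 1565, 1078 and 1708 CPM (0.90 ± 0.30, adjusted p = 0.0523). Snord68 itself was counted at 0 in all 4 irradiated supplemented libraries and 105, 56, 0 and 180 in unirradiated ones. On the adequate diet it had 116, 17, 0 and 0 counts in irradiated libraries, against 105, 350, 464 and 199 in unirradiated ones. How many of the Rpl13 counts come from the snoRNA was not tested.

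**Figure D4:**
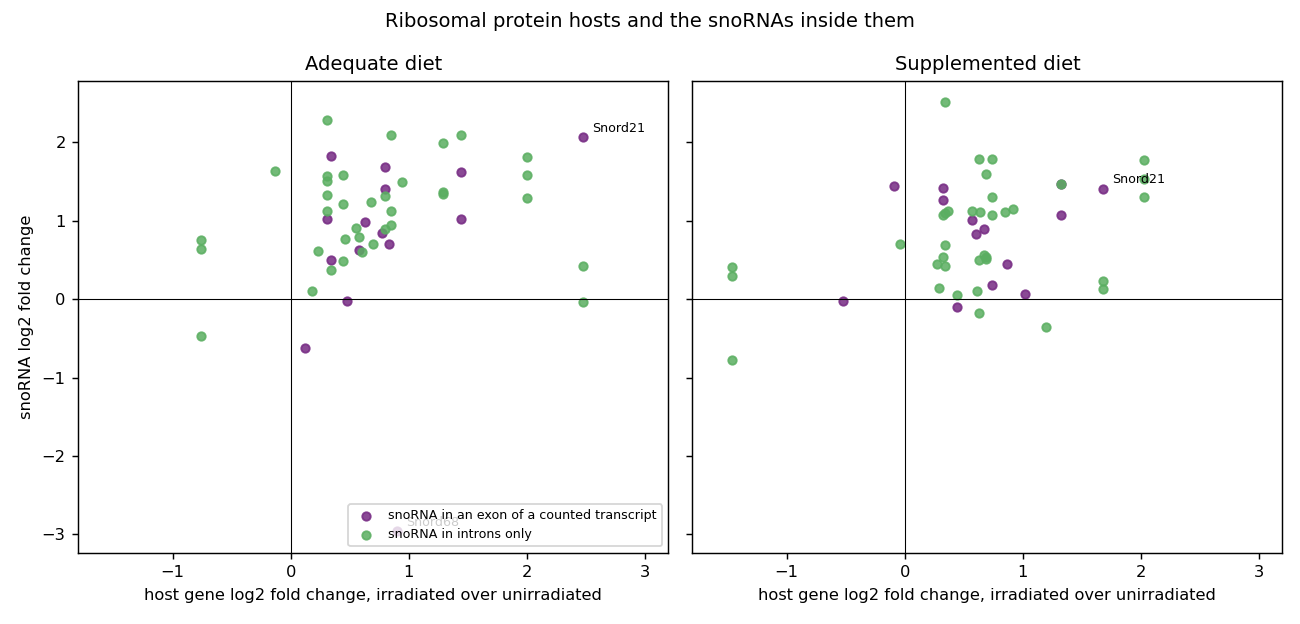
Log2 fold change (irradiated over unirradiated) of the host gene (horizontal axis) and of each snoRNA inside it (vertical axis), on the adequate diet (left) and the supplemented diet (right), with colour for snoRNAs inside an exon of a counted transcript. Most snoRNAs lie above zero, Snord21 at 2.07 on the left and 1.41 on the right; Snord68 is left out on the right because its irradiated libraries are all at 0.

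The sum of the 80 genes took 0.949 to 1.55% of all counts in irradiated adequate libraries, against 0.795 to 0.981% in unirradiated ones. It took 0.844 to 1.96% in irradiated supplemented libraries, against 0.942 to 1.10%. Both pairs of groups overlapped, through irradiated adequate replicate 2 at 0.949% and irradiated supplemented replicate 4 at 0.844%. Of protein-coding counts the share was 1.36 to 2.22% against 1.04 to 1.29% on the adequate diet, and 1.09 to 2.98% against 1.15 to 1.40% on the supplemented diet. The median deviation of the 75 genes from their mean over the libraries ran from -0.03 to 0.39 in irradiated adequate libraries, against -0.45 to -0.20 in unirradiated ones, on the log2 scale. Irradiated supplemented replicates 1, 2 and 3 were at 0.70, 0.49 and 0.39 and replicate 4 at -0.20, against -0.28 to -0.09 in unirradiated ones.

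**Figure D5:**
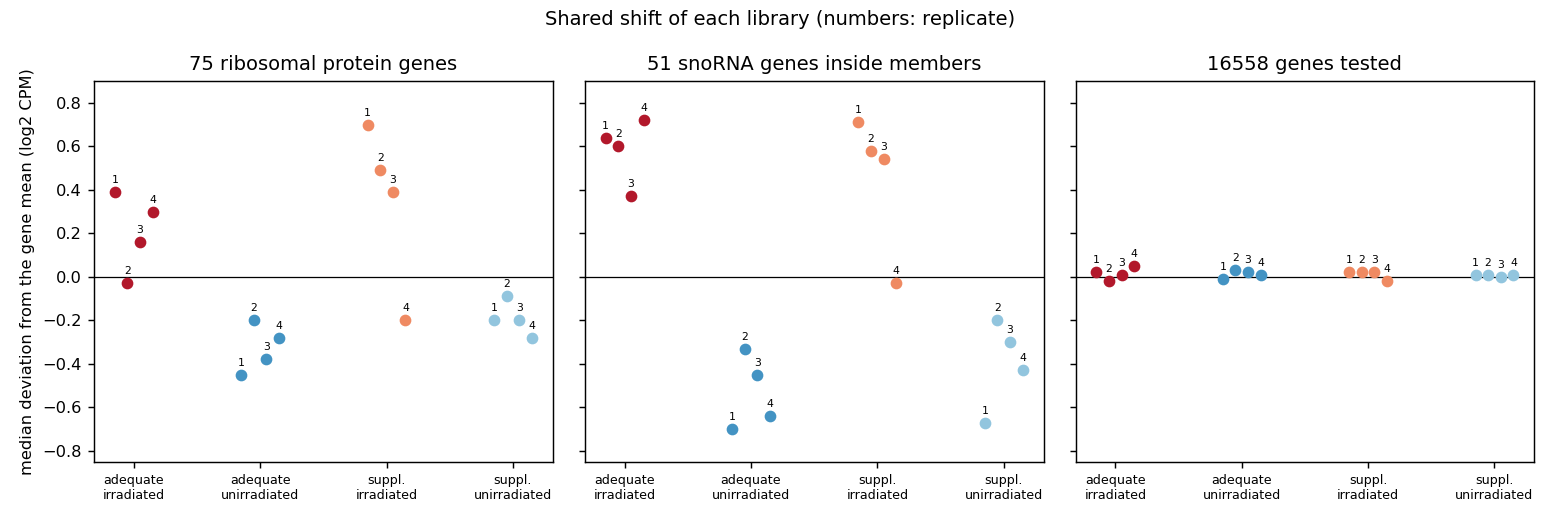
Median over genes of the deviation from each gene's mean over 16 libraries (log2 CPM, vertical axis) for the 75 ribosomal protein genes (left), the 51 snoRNAs inside them (middle) and all 16558 genes tested (right), 1 numbered point per library. Irradiated supplemented replicate 4 stands at -0.20 on the left, among the unirradiated libraries, and at -0.03 in the middle, while all genes tested stay near zero.

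Markers of cell types moved with irradiation as well. Sums are given for irradiated libraries, against unirradiated ones. Over all genes tested, 7.13% were higher and 6.58% lower on the adequate diet, and 8.03% higher and 7.21% lower on the supplemented diet. All 10 Paneth cell markers were higher on both diets, with sums of 9638 to 14909 CPM in irradiated and 3217 to 4564 CPM in unirradiated adequate libraries, and 12874 to 19723 against 4106 to 6989 CPM on the supplemented diet. Of 10 crypt base stem cell markers, 4 and 5 were higher, and of 12 markers of cycling cells, 0 were called on either diet. The stem cell sum was 721 to 1499 CPM against 465 to 511 CPM on the adequate diet and 876 to 1352 against 493 to 636 CPM on the supplemented diet. All 5 red blood cell markers were lower on both diets, and 6 and 3 of the 6 tested B cell and plasma cell markers were lower. The red blood cell sum was 3.28 to 8.62 CPM against 365 to 591 CPM on the adequate diet and 3.61 to 28.0 against 120.3 to 393 CPM on the supplemented diet. The B cell and plasma cell sum was 74.8 to 126 against 237 to 478 CPM and 127 to 177 against 189 to 415 CPM. The joint list of 8 macrophage and neutrophil markers had 5 higher on both diets, with sums of 216 to 299 against 138 to 195 CPM and 273 to 408 against 142 to 226 CPM. Goblet cells had 3 and 4 of 8 markers higher, fibroblasts 3 of 8 on both diets, and endothelium 0 of 6. Of 11 T cell markers, 2 were higher and 2 lower on the adequate diet, and 0 higher and 2 lower on the supplemented diet. Smooth muscle had 0 of 8 markers higher and 1 lower on both diets. Of 9 exocrine pancreas markers, 0 were higher and 1 lower on the adequate diet and 7 higher on the supplemented diet, where their sum was 6.46 to 21.7 CPM in irradiated libraries, against 3.06 to 7.32 CPM in unirradiated ones. On the adequate diet that sum was 5.60 to 10.5 CPM against 6.06 to 27.8 CPM. Their part in the rise of the ribosomal protein genes was not tested.

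Methionine supplementation changed none of the 75 genes beyond the threshold. Without irradiation, edgeR called 0 of 75, against 0.199% of all genes tested (0.169% higher and 0.0302% lower), and the median log2 fold change was 0.15. At an unadjusted p under 0.05 there were 8 of the 75. DESeq2 called 1 of the 75, Rpl5, beside 165 higher and 61 lower over all genes. Rpl5 had 79.7, 127, 188 and 125 CPM in supplemented and 33.7, 72.9, 75.5 and 53.9 CPM in adequate unirradiated libraries, a log2 fold change of 1.12 ± 0.30 (adjusted p = 0.140), the highest of the 75. Without unirradiated adequate replicate 2, 5 genes had an unadjusted p under 0.05, and without irradiated supplemented replicates 1 and 4, 13 and 15. After irradiation 0 of 75 were called, against 0% of all genes tested, with a median of 0.16, and 5 had an unadjusted p under 0.05. Without irradiated supplemented replicate 4, 33 had an unadjusted p under 0.05 and the median was 0.33. That library had the lowest share of ribosomal protein counts in its group (0.844%), and 0 of all genes were called in that fit. The share of all genes at an unadjusted p under 0.05 is not given here, so the counts at that threshold have no background. The median was 0.03 without irradiated supplemented replicate 1, 0.25 without irradiated adequate replicate 1, and -0.03 without the 3 libraries under 4 M, so its direction turned round there. The SE of the supplementation difference after irradiation, which sets its interval, was 0.60 for Rpl17 and 0.18 for Rplp0.

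The interaction of diet and irradiation, taken as the supplemented response minus the adequate one, had 0 of 75 calls, against 0% of all genes tested. At an unadjusted p under 0.05 there were 3 of the 75, again without a share of all genes at that threshold. With 1 library left out, the number at an unadjusted p under 0.05 was 1 to 8, the highest without irradiated supplemented replicate 4. Its median over the 75 genes was 0.05 (-0.10 and 0.22 without irradiated supplemented replicates 1 and 4), with values from -0.81 (Rpl5, SE 0.42) to 0.97 (Rpl39, SE 0.39). DESeq2 likewise called none of the 75 in this comparison or after irradiation.

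Other genes of translation were read from lists of translation genes. Of 19 translation elongation factors and other genes with TOP mRNAs, 7 were higher on the adequate and 9 on the supplemented diet and 0 lower, with medians of 0.38 and 0.54. Over all genes tested, 7.13% and 8.03% were higher. Tpt1, which encodes a TOP mRNA product, had 238, 257, 226 and 189 CPM in irradiated adequate libraries, against 65.9, 94.8, 115 and 93.4 CPM in unirradiated ones (1.29 ± 0.19, adjusted p = 0.000540), without overlap. Its supplemented log2 fold change was 0.67 (adjusted p = 0.0242), a call that ended with any of 4 libraries left out (up to 0.0831). Naca (0.75 adequate, 0.78 supplemented) and Eef1b2 (0.73 and 0.92) also rose on both diets. Eef1a1 (0.50, adjusted p = 0.109; 0.55, adjusted p = 0.0782), Eef2 and the ribosome-bound Rack1 were not called. Among genes just outside the naming rule, Rpl36al rose on both diets (0.59 and 0.60; the calls ended with any of 5 and 3 libraries left out, adjusted p up to 0.0751 and 0.0706), and Rps3a1, Rpl22l1 and Rpl7l1 were not called.

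Calls among ribosome assembly factors and genes of the polymerase that makes ribosomal RNA stood beside 7.13% of all genes higher with adequate methionine and 8.03% with supplementation. Of 56 assembly factors, 4 were higher on the adequate diet, and 3 higher and 1 lower on the supplemented diet. Npm1, a nucleolar chaperone, rose by 0.78 and 0.95 and Wdr12, of the large subunit processing complex, by 0.86 and 0.63, the supplemented call of Wdr12 ending with any of 6 libraries left out (adjusted p up to 0.110). Of 15 genes of RNA polymerase I and its factors, 0 were called on the adequate diet, and 1 higher (Taf1d, 0.77) and 1 lower (Znrd1, -0.42) on the supplemented diet, and each of these calls ended with any of 11 libraries left out (adjusted p up to 0.117 and 0.139). Ncl, Fbl and Polr1a were not called. Of 28 initiation factors, 3 were higher on each diet and 0 and 1 lower, and Eif2s2 rose on both (0.61 and 0.52), its calls ending with any of 3 and 9 libraries left out (adjusted p up to 0.0627 and 0.140). None of 10 genes of the Myc network was called on either diet, and Myc had 0.84 (adjusted p = 0.144) and 0.52 (adjusted p = 0.365).

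Calls among signalling genes that control translation were few and went in both directions. Of 37 mTORC1 and S6 kinase genes, 4 were higher and 4 lower after irradiation with adequate methionine; with supplementation 4 were higher and 5 lower. Among all genes, 7.13% were higher and 6.58% lower with adequate methionine, and with supplementation 8.03% were higher and 7.21% lower. The median log2 fold change of the 37 genes was -0.05 with adequate methionine and -0.01 with supplementation, against 0.01 over all genes in both. Eif4ebp1, which holds back the cap-binding factor, had 16.9, 14.5, 15.6 and 9.41 CPM in irradiated adequate libraries, against 8.82, 6.18, 5.67 and 4.95 CPM (1.20 ± 0.25, adjusted p = 0.00493), and rose by 1.11 on the supplemented diet. Pdcd4, an inhibitor of the initiation helicase, rose by 0.96 and 1.21. Lamtor4, part of the lysosomal anchor of mTORC1, fell by 0.60 and 0.51, and Mtor itself had -0.27 (adjusted p = 0.0528) and -0.29 (adjusted p = 0.0375, ended with any of 6 libraries left out). Of 22 genes of ribosome quality control, Gcn1l1, which senses collided ribosomes, was lower on both diets (-0.46 and -0.40; the calls ended with any of 5 and 7 libraries left out). Ascc3 fell by 0.39 on the supplemented diet and was higher with supplementation without irradiation (0.57, adjusted p = 0.0447); these calls ended with any of 4 and 11 libraries left out.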

How the data were processed

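RNA was depleted of ribosomal RNA, fragmented and made into libraries with a small RNA protocol, per the labels' protocols. Reads were processed with Bowtie2 2.2.9, RSEM 1.3.0 and edgeR 3.2.4 on build NCBIM37, per the submitters' processing notes. The deposited values are RSEM expected counts (estimated counts, which share reads among genes) and TPM, per the file headers, and the authors' mean lengths. Counting strand is not given in the sources used here. Here, expected counts were rounded, filtered by group with filterByExpr and tested with edgeR 4.0.16 (TMM, robust quasi-likelihood, 16558 genes, 16 libraries, Benjamini-Hochberg, two-sided; 5 comparisons) in R 4.3.3. TPM served for the order of levels. DESeq2 1.42.0 and limma 3.58.1 were alternatives. Gene names and snoRNA positions came from GENCODE M21, whose build is later than the files'. The script was tested on simulated data. Fold changes are log2 with SE. The ribosomal protein genes and gene lists were chosen with earlier results of these data known. Named are the 3 largest rises and falls per comparison, paralogs, stalk and neighbouring genes, the 2 smallest p per list, and the 3 highest and lowest TPM; genes named outside this, such as Rpl11, Rps28, Rps15a, Rps23, Rps27rt, Rps2, Fau, Rpl23, Rpl29, Rpl6, Rpl18 and the snoRNAs, were chosen after their values were seen. Labels give no animal, and replicate numbers follow the order of the samples.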

Additional observations from a re-analysis of the deposited data

Results flagged for a closer look

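In 88 groups of 4 libraries, for 21 named ribosomal protein genes and their summed share, 4 values stood apart from the other 3 by a gap above the 95% critical value of Dixon's test, a rate that chance gives in about 1 of 20 groups. Rpl5 had 504 CPM in irradiated adequate replicate 4, where the other 3 lay between 264 and 291 CPM. Rpl39 had 59.2 CPM in unirradiated adequate replicate 1, where the others lay between 45.4 and 45.6 CPM. Rps27l had 82.6 CPM in unirradiated adequate replicate 2, against 57.9 to 62.1 CPM in the others, and 66.3 CPM in irradiated supplemented replicate 4, against 48.1 to 50.8 CPM in the others. Without unirradiated adequate replicate 2, Rps27l was still lower on the adequate diet (-0.49, adjusted p = 0.0338).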

How the results depend on the processing

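No paired analysis was possible because the labels give no replicate numbers, and the numbers used here only follow the order of the samples. Over 63 single-gene results and 28 alternatives, 1449 values kept their direction and side of the threshold, 310 kept their direction and lost the call, and 1 reversed: Rpsa on the supplemented diet, at 0.23 (adjusted p = 0.528) when summed with its pseudogenes. The 63 results were those already called in the main fit, so a gained call could not be counted. As 16 of the 28 alternatives only left out 1 library, most values were likely to keep their direction. Rpl17, Rpl31, Rpl35 and Rps27a had no value with at least 10 counts required in all 16 libraries. On the adequate diet, the number of ribosomal protein genes higher was 13 with library totals, 9 at an adjusted p under 0.01 and 11 to 40 with 1 library left out. Without pseudogene-sharing genes and exon-held snoRNAs it was 20, an alternative chosen after seeing the data. That alternative counts calls of the main fit among the fewer genes left, so a smaller count there does not mean a smaller share. Over all genes the number higher was 614 with library totals, 485 at an adjusted p under 0.01 and 689 to 1408 with 1 library left out. The number of ribosomal protein genes lower, 1 in the main fit, was 2 with DESeq2, with library totals and without the libraries under 4 M (Rps27l and Fau each time), and 1 with any library left out. On the supplemented diet, the number higher was 14 with library totals, 11 at an adjusted p under 0.01 and 21 among the fewer genes left without pseudogene sharing and exon-held snoRNAs. It was 20 without the libraries under 4 M, and 18 to 52 with 1 library left out. Over all genes it was 671, 577, 1048 without the libraries under 4 M, and 816 to 1834 with 1 library left out, the first 2 with library totals and at an adjusted p under 0.01. The number of ribosomal protein genes lower was 3 with library totals (Rpsa, Rps27l and Rps2), 0 at an adjusted p under 0.01, without the libraries under 4 M, with pseudogenes summed or such genes left out, and 0 to 2 with 1 library left out. Supplementation without irradiation gave 1 higher with DESeq2 and 2 with the compared groups alone, against 165 and 113 over all genes. Over the pathway lists, the number called on the adequate diet was 41 with DESeq2, 9 at an adjusted p under 0.01 and 14 to 36 with 1 library left out. Calls over all genes moved too, from 1180 higher and 1090 lower in the main fit to 1402 and 1299 with DESeq2. At an adjusted p under 0.01 they were 485 and 386. On the supplemented diet the number called over the lists was 18 without a filter or without the libraries under 4 M and 19 with the compared groups alone. It was 9 at an adjusted p under 0.01 and 14 to 51 with 1 library left out. Calls over all genes were 1329 higher and 1194 lower in the main fit. They were 1029 and 952 without a filter, and 1048 and 877 without the libraries under 4 M. With the compared groups alone they were 1094 and 916, and at an adjusted p under 0.01 577 and 465. For supplementation without irradiation the number over the lists was 0 with upper quartile factors, library totals, no filter, an adjusted p under 0.01 or without the libraries under 4 M. It was 0 to 1 with 1 library left out. The interaction median lay between -0.10 and 0.22 with 1 library left out and was -0.14 without the libraries under 4 M. The mean share of counts in the 80 genes, in the order irradiated and unirradiated, was 1.78 and 1.16% (adequate) and 2.16 and 1.26% (supplemented) of protein-coding counts, and 1.53 and 1.15% (adequate) and 1.86 and 1.28% (supplemented) with pseudogenes. The promoter share was 48.3 and 21.2% within 5 bases of the start. The cause of these shifts was not tested.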

Other observations

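The mean length of the counted transcripts, which the files give for each gene and library, did not overlap between groups for a few of the 80 ribosomal protein genes. It was longer in all irradiated adequate libraries for 4 genes (Rpl6, Rpl10, Rpl18 and Rps15a) and shorter for 2 (Rpl7a and Rpl23). On the supplemented diet it was longer for Rpl29, and genes for which it was shorter include Rpl7a, Rpl14, Rpl21, Rpl23 and Rplp2. Rpl23 had a mean length of 796 to 853 bases in irradiated adequate libraries, against 918 to 1019 bases in unirradiated ones, and 804 to 826 bases in irradiated supplemented libraries, against 859 to 960 bases. Rpl6 had 1165 to 1223 bases in irradiated adequate libraries, against 695 to 974 bases, and 1177 to 1237 bases in irradiated supplemented libraries, against 934 to 1177 bases. Rpl18 had 544 to 620 bases in irradiated adequate libraries, against 406 to 464 bases, and 494 to 558 bases in irradiated supplemented libraries, against 485 to 513 bases. Rps15a had 338 to 427 bases in irradiated adequate libraries, against 302 to 315 bases, and 341 to 495 bases in irradiated supplemented libraries, against 314 to 344 bases. Lengths were compared for the 80 ribosomal protein genes only. The share of all genes without overlap was not counted, so these numbers have no background. The genes given with values were chosen after these were seen, no test was run on the lengths, and Rpl5 and Rpl13 had nearly the same length in all 4 groups.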
